A study of Mus musculus with 3 samples.

Results

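CD8+ T cells that shared their TCR with at least 1 other sampled cell were compared with CD8+ T cells whose TCR was seen once. A clonotype was the pair of amino acid CDR3 sequences given for a cell, and it was called expanded when at least 2 cells of the same pool of mice carried it and single when 1 cell did. Among the deposited CD8+ cells, the 2 classes were therefore set by TCR sequence, and no expression value was used to divide them. Whether RNA levels entered the authors' assignment of cells as CD8+ was not examined. Of 10833 CD8+ cells, 9003 had a clonotype, and these are 9003 of the 21204 cells of the series. Of the 9003, 2662 (29.6%) were expanded and 6341 were single. The 1830 CD8+ cells without a clonotype entered neither class. The 2662 expanded cells made up 892 clonotypes, counted per pool, out of 7233.

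The cells came from the spleens of B6D2F1 recipients of bone marrow and T cells from B6 donors, with TEa TCR transgenic T cells added to the graft, given after irradiation as a model of graft-versus-host disease (GVHD). Recipients were given saline or cyclosporin A (CSA) at 5 mg/kg or 50 mg/kg on each of days 0 to 6, and their spleens were collected on day 7. Each group was 6 mice, pooled by 2 into 3 hashtagged pools. The sorted CD8+ cells of each treatment were mixed with its CD4+ cells and loaded as 1 droplet capture, from which 5′ gene expression and TCR libraries were made. TEa cells are CD4+ T cells, and no CD8+ cell was marked as TEa. The age of the mice is not given in the labels. A dose and its capture cannot be told apart, whereas expanded and single cells of a pool shared mice, capture and sequencing, and every class comparison was paired within the pool. The 3 pools of a dose are the replicates, and each holds cells of 2 animals.

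Each T cell carries a TCR made by joining V, D and J segments for the beta chain and V and J segments for the alpha chain, with bases trimmed and added at the joints, so that cells of identical TCR are most often the progeny of 1 cell. A naive CD8+ T cell that meets its peptide on MHC class I, here of recipient origin, divides rapidly, lowers the IL-7 receptor and the receptors that guide it to lymph nodes, and acquires granzymes and perforin. CSA blocks calcineurin and through it NFAT, which drives IL-2 and many other genes induced by the TCR. A cell called single here may still belong to an expanded clone in the animal, since few cells of each spleen were sampled.

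The CDR3 of the largest clonotype of each pool is shown first, because each adds more cells to the expanded class of its pool than any other clonotype, with both chains for saline pools and the beta chain for pools given CSA. Sequences are as deposited, 5′ to 3′. Lower case marks bases that matched the germline V or J segment (GENCODE vM21, GRCm38), and capitals mark the bases between the matches, which include the D segment in beta chains.
saline replicate 1, alpha, TRAV6-6 and TRAJ49: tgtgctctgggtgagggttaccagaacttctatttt
saline replicate 1, beta, TRBV17 and TRBJ2-2: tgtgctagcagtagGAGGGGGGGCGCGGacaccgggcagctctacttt
saline replicate 2, alpha, TRAV16 and TRAJ34: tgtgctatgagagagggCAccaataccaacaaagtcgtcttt
saline replicate 2, beta, TRBV13-3 and TRBJ1-1: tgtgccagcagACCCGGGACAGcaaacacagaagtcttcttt
saline replicate 3, alpha, TRAV7-6 and TRAJ48: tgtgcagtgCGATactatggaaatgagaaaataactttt
saline replicate 3, beta, TRBV5 and TRBJ2-1: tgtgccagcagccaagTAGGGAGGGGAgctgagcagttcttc
CSA 5 mg/kg replicate 1, beta, TRBV13-3 and TRBJ2-4: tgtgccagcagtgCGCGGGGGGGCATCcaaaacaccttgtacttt
CSA 5 mg/kg replicate 2, beta, TRBV12-2+TRBV13-2 and TRBJ1-4: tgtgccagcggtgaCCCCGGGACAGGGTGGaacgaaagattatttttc
CSA 5 mg/kg replicate 3, beta, TRBV29 and TRBJ2-7: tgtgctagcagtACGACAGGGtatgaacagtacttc
CSA 50 mg/kg replicate 1, beta, TRBV19 and TRBJ1-2: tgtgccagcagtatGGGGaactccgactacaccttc
CSA 50 mg/kg replicate 2, beta, TRBV31 and TRBJ1-2: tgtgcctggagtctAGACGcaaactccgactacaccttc
CSA 50 mg/kg replicate 3, beta, TRBV29 and TRBJ2-5: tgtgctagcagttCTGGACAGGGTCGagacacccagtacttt

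No 2 of these clonotypes shared a beta chain sequence. The clonotype of saline replicate 1 joined TRBV17 (chr6:41163062-41163556, plus strand) to TRBJ2-2 (chr6:41542957-41543007, plus strand) across 14 such bases. That of saline replicate 2 joined TRBV13-3 (chr6:41130147-41130585) to TRBJ1-1 (chr6:41533864-41533911) across 11, and that of saline replicate 3 joined TRBV5 (chr6:41062332-41062803) to TRBJ2-1 (chr6:41542754-41542803) across 11. The alpha chain of saline replicate 1 joined TRAV6-6 (chr14:53516929-53517366) to TRAJ49 (chr14:54168686-54168747) with 0 bases between them. TRBV12-2 and TRBV13-2 are both named for CSA 5 mg/kg replicate 2 in the deposited table, and no position is given for that entry.

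The saline pools held larger CD8+ clonotypes than the CSA pools. The largest clonotypes of the saline pools had 60, 64 and 21 cells. Those of the pools given 5 mg/kg had 6, 10 and 8 cells, and those given 50 mg/kg had 7 cells each. Every saline pool was above every CSA pool. Cells with the beta chain of the largest clonotype but a different clonotype entry were counted apart. They numbered 6 in saline replicate 1, 11 in saline replicate 2, 5 in CSA 5 mg/kg replicate 1 and 2 in CSA 5 mg/kg replicate 3. In CSA 5 mg/kg replicate 1 they also carried an alpha chain of the largest clonotype. As a share of cells with a clonotype, the largest clonotype took 4.0% ± 2.06 (SD, n = 3 pools) of the saline cells, 1.13% ± 0.268 of those given 5 mg/kg and 0.665% ± 0.0469 of those given 50 mg/kg (exact two-sided permutation test of the trend, p = 0.00119, the smallest that 9 pools can give). Most expanded clonotypes were small, with 583 of 892 at 2 cells, 170 at 3, 57 at 4 and 25 at 5, and 57 larger ones. Of these 57, 43 were in saline pools, 6 in pools given 5 mg/kg and 8 in pools given 50 mg/kg.

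The share of cells in expanded clonotypes was 38.1% ± 0.238 in saline pools, 22.6% ± 0.378 in those given 5 mg/kg and 24.4% ± 3.84 in those given 50 mg/kg. Both CSA groups lay below the 3 saline pools, but 3 pools against 3 cannot give an exact p below 0.1, and the trend over the doses gave p = 0.123 (exact permutation test, 9 pools). The chance of seeing a TCR again grows with the number of cells sampled, which ran from 565 to 1287 per pool. At a fixed 565 cells per pool the expected shares were 28.9% ± 1.52, 20.2% ± 2.69 and 16% ± 2.20, and the trend gave p = 0.00357 (exact permutation test, 9 pools). The 2 CSA doses were not separated in either form (exact p = 0.6 as sampled and 0.2 at the fixed number, 3 pools against 3). Of expanded cells, 38.3% ± 6.69 with saline were in clonotypes of over 5 cells, compared with 9.26% ± 4.07 and 7.13% ± 4.44 with CSA (exact permutation trend over 9 pools, p = 0.0214).

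**Figure D1:**
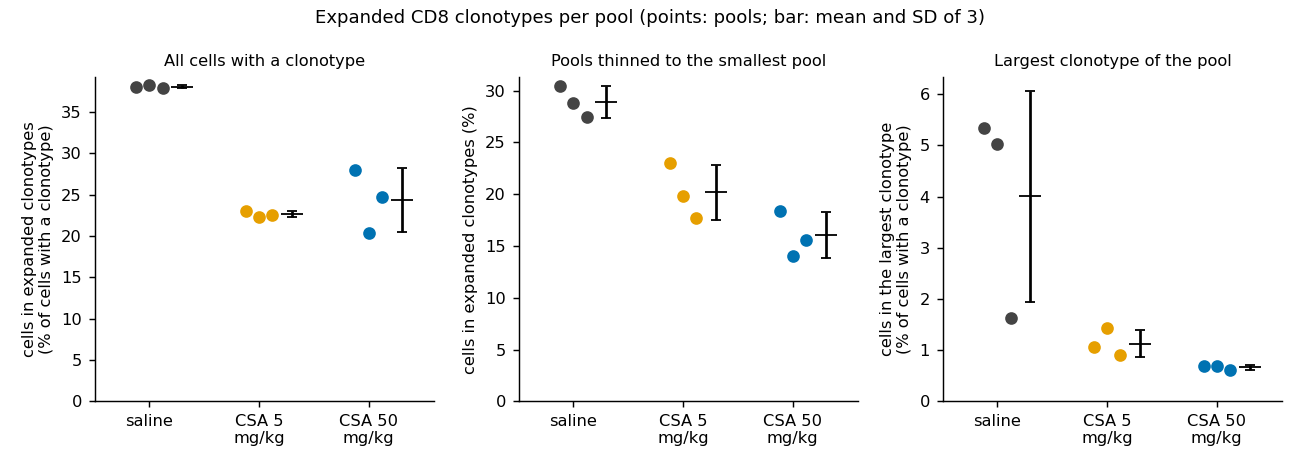
Share of cells with a clonotype (%) that were expanded, as sampled (left) and with each pool thinned to 565 cells (middle), and share in the largest clonotype (right), by treatment. Points are pools, and the bars give the mean and SD of 3 pools; the saline pools lie above every CSA pool in all 3 panels.

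Because the classes differ in how cells were sampled and read, their quality was compared first. Expanded cells held more UMIs, with a mean pool median of 6603 ± 1506 against 5751 ± 1507 for single cells (SD, n = 9), a difference of 852 ± 427 that was positive in 9 of 9 pools (exact sign-flip test, p = 0.00391, the smallest 9 pools can give). Within a cluster the difference ran from -197 UMIs in C8 to 440 in C6. It passed the sign-flip test in C1 (337, 8 of 9 pools, exact p = 0.0195), without adjustment over the clusters. Mitochondrial shares were alike in value, at 1.64% and 1.65% of UMIs (exact sign-flip p = 0.629, 9 pools). Single cells more often carried 2 strong hashtags, 6.92% against 1.08%, and more often an extra chain, 19.3% against 8.89%, or a missing chain, 16.9% against 6.98%. In 183 single cells (2.03% of cells with a clonotype) the beta chain was that of an expanded clonotype of the same pool. By pool these cells made up 1.88% to 4.125% of single cells. Taking clonotypes by the beta chain alone raised the mean expanded share of saline pools from 38.1% to 46.8%. The same change moved it from 22.6% to 31.4% at 5 mg/kg, and from 24.4% to 33.2% at the higher dose. The deposited table marked no cell as a doublet or as dead, and 50 of 10783 distinct barcodes occurred in more than 1 capture. Summed counts per pool ranged from 1039567 to 2653060 UMIs for expanded and 2756135 to 7586078 for single cells. The part of these differences in the results was not tested, except through the fits with these cells left out that are given beside the counts.

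Other cell types were read from their markers as summed CPM (counts of UMIs scaled to 1 common total, and so comparable between sums) per class. Cd4 had 0 UMIs in both classes, although CD4+ cells were loaded in the same captures. Whether the authors' choice of CD8+ cells fixed this value was not tested, so it is no check on purity. B cell markers summed to 408 ± 200 CPM in expanded and 451 ± 201 CPM in single cells, ranging from 229 to 736 and from 280 to 808 (exact sign-flip p = 0.18, 9 pools). The summed levels of CD4+ T cell, myeloid and erythroid markers also did not pass (exact p = 0.406, 0.551 and 0.473, 9 pools). NK and γδ T cell markers summed to 10.4 ± 3.41 CPM in expanded and 15.1 ± 4.69 CPM in single cells, low levels in both. This difference (exact sign-flip p = 0.043, 9 pools) was not adjusted over the marker lists, and expanded cells were higher in 2 pools. CD8+ T cell identity genes were lower in expanded cells, 9473 ± 1010 against 9909 ± 943 CPM (lower in 9 of 9 pools, exact sign-flip p = 0.00391).

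The deposited annotation sorts CD8+ cells into 9 clusters, named C0 to C8 by the study. The names were matched to the deposited numbers by cell number and checked against markers, given here as CPM over all cells of a cluster. C7, called naive, had the markers Ccr7 (304) and Lef1 (283). C4, called cycling Cd226 high effector, had Mki67 (2759), Top2a (1548) and Cd226 (383). C2 and C3 are the other cycling effectors, with Pclaf at 805 in C2 and Cenpa at 717 in C3. C0 and C1 are effectors with Cd226 at 296 and 112. C5 had Tcf7 (354), Slamf6 (483) and Id3 (250), C6 had Fcer1g (497), and C8, called exhausted, had Ifng (842), Ccl4 (6338) and Tnfrsf9 (402).

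Expanded cells were more often in the cycling clusters and almost never in the naive cluster. C2, C3 and C4 together held 61.7% ± 9.02 of expanded and 45.6% ± 4.14 of single cells (SD, n = 9), higher in 9 of 9 pools (exact sign-flip p = 0.00391). C7 held 1 expanded and 337 single cells, so 0.296% of its cells were expanded. C2 held 29.1% of expanded and 22.5% of single cells (adjusted p = 0.0117, exact sign-flip test over 9 pools, Benjamini-Hochberg over 9 clusters), and C3 held 20.9% and 16.1% (adjusted p = 0.0176, same exact test). C0, the Cd226 high effectors outside cycle, was lower among expanded cells, 10.9% against 15.5%, in 9 of 9 pools (exact test, adjusted p = 0.0117). The shares in C1, C5, C6 and C8 did not pass (exact test, adjusted p from 0.0879 to 0.199).

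The difference in C4 was largest in the saline pools, although 7 of 9 pools were higher. C4 held 31.5% ± 3.57 of expanded and 18.5% ± 1.08 of single cells with saline, a difference of 13.0 percentage points. At 5 mg/kg the shares were 3.26% and 1.95%, and with 50 mg/kg 0.561% and 0.629%. C4 as a whole held 460 expanded and 470 single cells, so 49.5% of it was expanded. This value mostly describes the saline pools, which gave 440 of the expanded and 423 of the single cells. C4 held 16 expanded and 32 single cells at 5 mg/kg, and 4 and 15 at 50 mg/kg. Over 9 pools its difference had an adjusted p of 0.0492 (exact sign-flip test), and it did not pass once any saline pool, any pool given 5 mg/kg or CSA 50 mg/kg replicate 2 was left out (adjusted p from 0.0602 to 0.0984, exact). C5, the Tcf7 high cluster, held 5.70% of expanded and 11.9% of single cells in saline pools, 12% and 10.8% in those given 5 mg/kg, and 1.94% and 2.10% in those given 50 mg/kg. The saline difference in C4 and in C5 was set apart from both CSA doses with an exact p of 0.1, the smallest 3 pools against 3 allow.

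**Figure D2:**
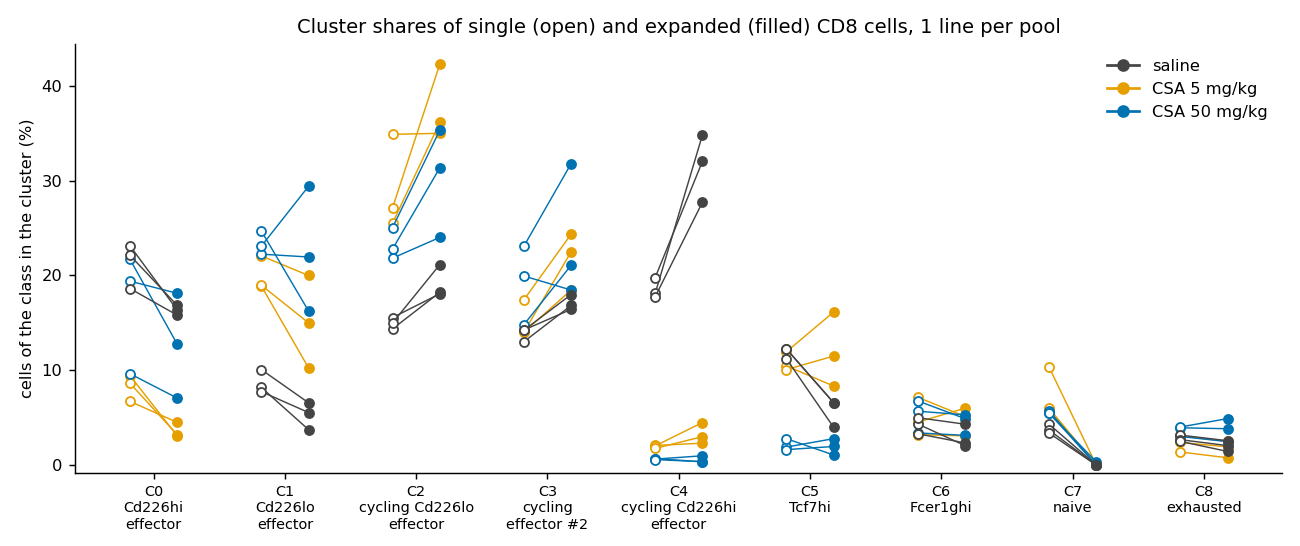
Share of single (open points) and expanded cells (filled points) in each of the 9 clusters, in percent of the class, with a line joining the classes of a pool and colours for treatment. In C4 the 3 saline lines rise, in C5 they fall, and in C7 expanded cells lie at or near 0 in every pool.

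In saline pools the cluster makeup changed with the size of the clonotype. C4 held 18.5% of single cells, 24.4% of cells in clonotypes of 2, 29.8% of those in clonotypes of 3 to 5 and 38.4% of those in larger clonotypes. The 3 cycling clusters together held 47.3%, 61.6%, 61.8% and 77.6%. C5 held 11.9%, 8.81%, 5.80% and 2.59%. Clonotypes of 2 cells lie just inside the rule and those of 1 cell just outside it, so the first 2 values of each series show its threshold. These values rest on 2280, 456, 411 and 535 cells and are given as a description without a test.

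The large clonotypes were not confined to 1 state. The 60 cells of saline replicate 1 were 20 in C4, 13 in C3, 12 in C2, 10 in C0, 3 in C1 and 2 in C8, and 45 of them were in cycling clusters. The 64 cells of saline replicate 2 were 39 in C4, 13 in C2 and 6 in C3, with 58 in cycling clusters. Of the 21 cells of saline replicate 3, 9 were in C4 and 17 were in cycling clusters. The 43 saline clonotypes of over 5 cells spread over 2 to 8 clusters, none with all its cells in 1. The cluster with the most cells of a clonotype was C4 in 26 and C2 in 11. That cluster held a median of 42.9% of a clonotype's cells. The share of cells in cycling clusters ran from 42.9% to 100% among these 43, with a median of 75%. With 5 mg/kg, C2 was the cluster with the most cells in 5 of 6 such clonotypes, and with 50 mg/kg in 4 of 8.

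Cells of the same clonotype still shared a cluster more often than expanded cells of different clonotypes in the same pool. Among 8425 same-clonotype pairs, 30.0% ± 5.81 were in 1 cluster, compared with 21.8% ± 2.52 of pairs from different clonotypes (mean over 9 pools), a difference of 8.21 percentage points that was positive in 9 of 9 pools (exact sign-flip test, p = 0.00391). The values per pool were 26.5%, 33.8% and 21.4% with saline against 21.4%, 19.3% and 18.4%. At 5 mg/kg they were 41.5%, 33.9% and 29.2% against 22.5%, 25.6% and 21.1%. With 50 mg/kg they were 29.6%, 25.7% and 28.4% against 21.3%, 20.6% and 25.8%. With each clonotype given equal weight the shares were 27.4% and 21.8% (exact p = 0.00781, 9 pools), and outside the cycling clusters they were 46.3% and 32.2% (exact p = 0.00781, 8 of 9 pools). Even so, of 583 clonotypes of 2 cells only 152 had both cells in 1 cluster, and 722 of 892 expanded clonotypes were found in 2 or more clusters.

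Gene expression was compared with UMI counts summed per pool and class, the pool as a block, and the quasi-likelihood test of edgeR, with p-values adjusted over all genes by Benjamini-Hochberg. In such sums, more cells of a kind and more RNA per cell cannot be told apart. Of 9227 genes tested over all doses, 683 were higher (7.4%) and 710 lower (7.69%) in expanded cells at an adjusted p under 0.05. For comparison, 6.98% of genes had the same sign in 9 of 9 pools. Leaving out cells with 2 strong hashtags gave 1289 genes in place of 1393, and taking clonotypes by the beta chain alone gave 1238. Weighting single cells to the cluster makeup of expanded cells gave 262, with 100 higher and 162 lower. Segment genes of the TCR and immunoglobulins made up 13 of the 1393 and are not named, since the classes are defined by TCR sequence. In the rest of the report a level is a mean TMM-scaled CPM per class and a difference is on the log2 scale, expanded minus single.

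Pdcd1, Havcr2 and Zbtb32 were the 3 genes with the highest differences among those the naming rule chose. Pdcd1, which encodes PD-1, was at 360, 415 and 425 CPM in expanded cells of the saline pools and at 305, 289 and 307 in single cells. At 5 mg/kg it was at 409, 407 and 416 against 300, 238 and 267. At 50 mg/kg the levels were 25.9, 16.5 and 104 against 21, 10.4 and 56.6. Expanded cells were thus above single cells in every pool, at levels that were far lower with 50 mg/kg, and the difference was 0.53 (SE 0.05, adjusted p = 5.34e-08). Havcr2, which encodes TIM-3, was at 148 ± 77.9 against 103 ± 41.2 CPM (0.49, SE 0.06, adjusted p = 5.32e-06). Zbtb32, a transcriptional repressor of activated lymphocytes, was at 129 ± 37.0 against 89.6 ± 18.6 CPM (0.51, adjusted p = 1.29e-07). With single cells weighted to the cluster makeup of expanded cells, these 3 differences were 0.46, 0.39 and 0.44, and all passed.

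The cytotoxic genes did not move as 1 group. Prf1, the pore-forming perforin, rose by 0.47 (adjusted p = 6.36e-06, 8 of 9 pools), and Gzmb rose by 0.37 from 2156 ± 255 to 2785 ± 393 CPM (adjusted p = 1.52e-06). Gzma fell by 0.23, from 1603 to 1355 CPM (adjusted p = 6.92e-05), as did the chemokine Ccl5 by 0.40 and the NK receptor subunit Klrd1 by 0.38, both lower in 9 of 9 pools. Of 18 cytotoxic genes tested, 5 were higher (Prf1, Ccl3, Gzmb, Serpinb9 and Serpinb6b) and 6 lower (Ccl5, Klrd1, Klrk1, Gzma, Srgn and Ctsw), with a median difference of -0.02 beside 0.00 over all genes. Weighted to the same cluster makeup, the counts were again 5 and 6. Of 12 inhibitory receptor and exhaustion genes, Pdcd1, Havcr2 and Lag3 were higher and Cd160 was lower, whereas Ctla4 (0.11, adjusted p = 0.387), Tigit (0.02, adjusted p = 0.852) and Tox (0.19, adjusted p = 0.0679) did not pass.

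Genes of naive, stem-like and memory cells were lower in expanded cells. Il7r, the IL-7 receptor alpha chain, was at 41.1, 50.8 and 43.7 CPM in expanded cells of the saline pools against 149, 151 and 143 in single cells. With 5 mg/kg it was at 95.5, 56.6 and 59.5 against 210, 159 and 137. With 50 mg/kg it was at 66.8, 80.5 and 57.7 against 85.7, 112 and 108. The classes did not overlap within any dose, and the difference was -1.21 (SE 0.10, adjusted p = 3.36e-08). Ccr7, which guides cells into the T cell zone, was at 7.64 ± 2.73 against 26.1 ± 5.12 CPM (-1.81, adjusted p = 1.03e-09). Of 16 genes of this list, 14 were lower and 0 higher, with a median of -0.43.

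The naive cluster C7 held 5.58% of single cells and 0.0393% of expanded cells, and its part in the naive list was not tested apart from the other clusters. With single cells weighted to the same makeup over all clusters at once, 7 of 15 genes were lower with a median of -0.22. Il7r then differed by -0.84 (adjusted p = 7.49e-07) and Ccr7 by -0.69, and both still passed. Tcf7, which encodes TCF-1, differed by -0.70 without weights and by -0.22 with them (adjusted p = 0.181). Bcl2, which protects from apoptosis, differed by -0.66 and -0.26 and passed in both. Lef1 (-0.10, adjusted p = 0.208) did not pass in the unweighted fit.

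The other genes lowest in expanded cells were Btg1, an antiproliferative gene, at 160 against 236 CPM (-0.58, adjusted p = 5.13e-08), Arl4c (-0.57), Dtx1, a regulator of Notch (-0.57), Slfn1, a Schlafen family gene of quiescent T cells (-0.56), Kbtbd11 (-0.55), Ass1, an enzyme of arginine synthesis (-0.55), and Pdcd4 (-0.53). Each was lower in 9 of 9 pools, as the naming rule required. All 7 also passed in the weighted fit, with differences from -0.53 for Ass1 to -0.29 for Pdcd4. Outside the cycling clusters Slfn1 differed by -0.21 and did not pass (adjusted p = 0.0985), and the other 6 did.

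Genes of the cell cycle were higher in expanded cells. Of 28 DNA replication genes 23 were higher and 0 lower (median 0.26), and of 25 mitosis genes 24 were higher and 0 lower (median 0.32). Plk1, a mitotic kinase, was at 140 against 105 CPM (0.41, adjusted p = 1.52e-06), and Ccnb1, which encodes cyclin B1, at 112 against 83.8 CPM (0.43, adjusted p = 1.71e-06). Ndc80, a kinetochore subunit, differed by 0.45 and Hmmr, a spindle gene, by 0.42. In the weighted fit, 2 of the replication genes and 1 of the mitosis genes were higher, with medians of 0.04 and 0.08. Plk1 (0.11, adjusted p = 0.295), Ccnb1 (0.16, adjusted p = 0.133), Ndc80 (0.17, adjusted p = 0.124) and Hmmr (0.15, adjusted p = 0.121) then did not pass. Outside the cycling clusters these 4 genes differed by 0.23, 0.45, 0.09 and 0.16 in the same order, and none passed (adjusted p from 0.394 to 0.94). The share of cells in the cycling clusters was 61.7% against 45.6%, and its part in these differences was not tested apart from the other clusters.

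Prdx4, a peroxiredoxin, differed by 0.48, Adap1 by 0.47 and Fabp5, a fatty acid binding protein, by 0.41, and these 3 passed in the weighted fit at 0.33, 0.34 and 0.30. Outside the cycling clusters Prdx4 (0.34, adjusted p = 0.359) and Fabp5 (0.12, adjusted p = 0.803) did not pass, and Adap1 did. Of 18 glycolysis genes 9 were higher and 0 lower (median 0.15), and 5 were higher in the weighted fit. Of 30 OXPHOS genes 1 was higher and 3 were lower. Over all genes tested 7.4% were higher and 7.69% lower, so these few calls are not read as a result about the list.

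Interferon response genes were lower in expanded cells, with 15 of 17 lower, 0 higher and a median of -0.37. Irf7 was at 56.3 ± 17.2 against 72.3 ± 14.3 CPM (adjusted p = 6.09e-05). In the weighted fit 6 were lower, with a median of -0.18. Of 12 genes of MHC class I presentation and the proteasome 6 were lower and 0 higher, among them B2m at 2051 ± 381 against 2227 ± 318 CPM. Of 11 CD8+ T cell identity genes 5 were lower and 0 higher.

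**Figure D3:**
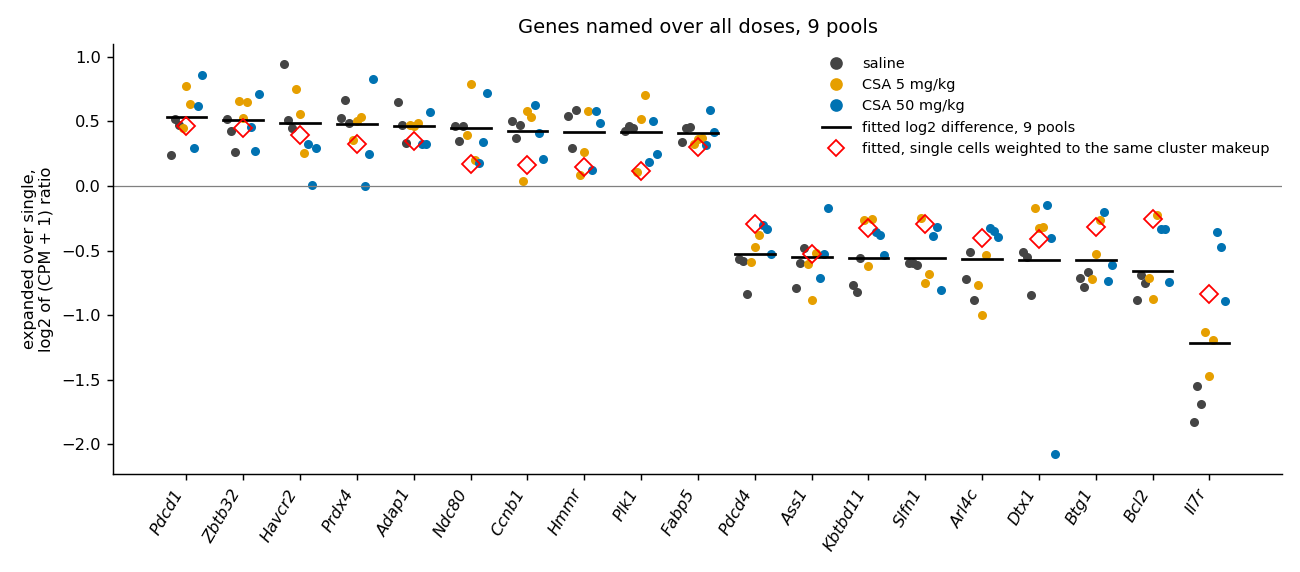
Log2 ratio of expanded to single cells (TMM-scaled CPM + 1) for genes named over all doses, with 1 point per pool coloured by treatment, a black bar for the fitted difference and a red diamond for the fit with single cells weighted to the cluster makeup of expanded cells. For Il7r the pools given 50 mg/kg lie nearest 0, and for Ndc80, Ccnb1, Hmmr and Plk1 the diamonds lie well below the bars; the lone low point for Dtx1 is CSA 50 mg/kg replicate 3.

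The remaining lists had calls in both directions or few calls. Their counts stand beside 7.4% of all genes higher and 7.69% lower, and few calls in lists of this size are not read as a result about the list. Of 12 activation and costimulation genes, Tnfrsf9, Tnfrsf4 and Il2rb were higher and Cd69 and Cd2 lower. Tnfrsf9, which encodes 4-1BB, was at 154 against 105 CPM (0.54, adjusted p = 1.1e-06). Of 13 genes induced by TCR signals, Nr4a2 and Dusp5 were higher and Crtam lower. Of 11 effector transcription factors, Irf4 and Irf8 were higher and Zeb2, Hopx and Id2 lower, whereas Tbx21 (0.05, adjusted p = 0.439) and Eomes (-0.20, adjusted p = 0.0568) did not pass. Of 12 chemokine receptor and homing genes, Ccr2 and Itgb1 were lower. Among markers of other cells, the B cell genes Cd74 and Cd79b were lower (2 of 7 tested), Cst3 was higher and S100a9 lower among 8 myeloid markers, Klrb1c was lower among 2 NK and γδ T cell markers, and neither CD4+ T cell marker nor the erythroid marker passed.

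**Figure D4:**
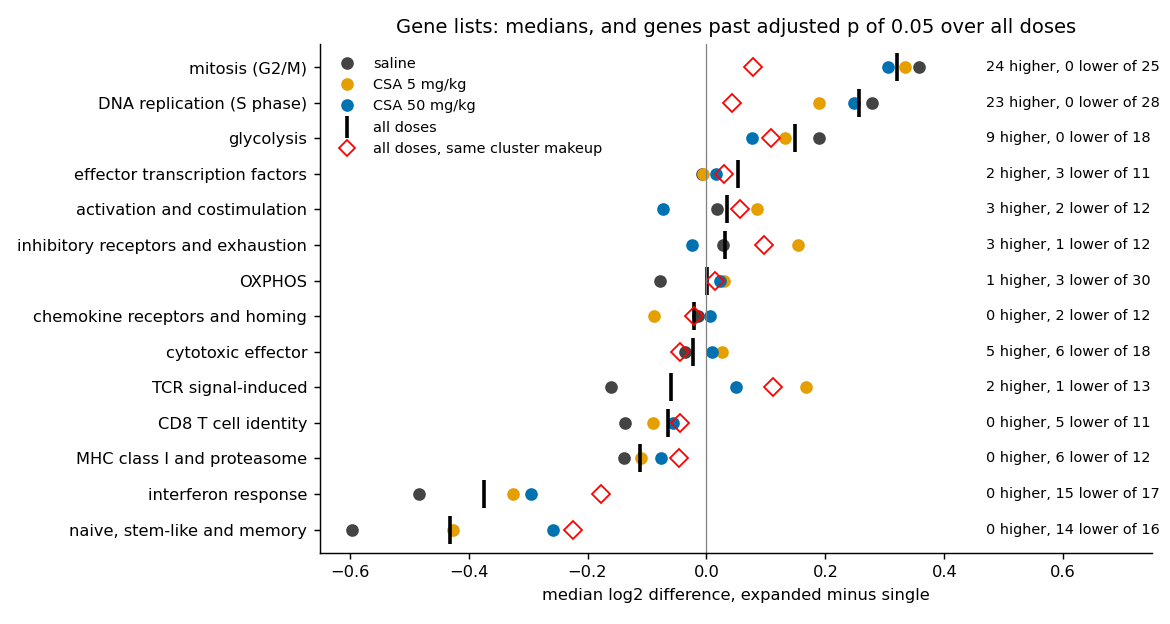
Median log2 difference, expanded minus single, of each gene list by treatment (points), over all doses (black bars) and over all doses with weighted single cells (red diamonds), with the number of genes past the threshold over all doses at the right. The mitosis and replication lists lie above 0 and the naive and interferon lists below it at each dose, and the diamonds lie nearer 0.

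Within single clusters, where the cell states are closest, fewer genes passed. C4 was tested in 3 saline pools and had 114 of 8149 genes past the threshold (1.4%), with 43 higher and 71 lower. C2 had 93 of 6728 (1.38%), with 42 higher and 51 lower. C0 had 8 of 5177 (0.155%), C1 9 of 3860 (0.233%), C3 6 of 5078 (0.118%), C5 3 of 3337 (0.0899%) and C6 5 of 1772 (0.282%). In C8 edgeR called 0 of 1679 genes (0%), with 91 at an unadjusted p under 0.05, and DESeq2 called 0. C7 could not be tested, with 1 expanded cell. The clusters differed in cells and in the number of pools tested, so these percentages do not rank them.

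Il7r was lower in expanded cells within C0, C1, C2, C3 and C4, with differences of -0.87, -0.58, -1.18, -1.01 and -1.43, and it did not pass in C5 (-0.32, adjusted p = 0.748) or C6. Gzmb was higher within C0, C1, C2 and C4, Pdcd1 within C1, C2 and C4, and Zbtb32 within C1, C2, C3 and C5. Arl4c was lower within C0, C2, C4 and C5, and Gzma within C2 and C4. Each gene had the direction seen over all clusters in the clusters where it passed, which are the ones listed. Apart from Il7r in C5, directions in clusters where a gene did not pass are not given.

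Other genes were named by cluster, by the rule that asks for a mean of at least 50 CPM and the same sign in every pool tested. In C4 the highest of these were Prf1 (0.78), Cpd (0.72) and Havcr2 (0.70), and the lowest Zbp1, a nucleic acid sensor induced by interferon (-0.94), Ccr2 (-0.89) and Klf3 (-0.85). In C2 they were Polr3k (0.41), Adap1 (0.39) and Fabp5 (0.38) against Itgax (-0.43) and Arl4c (-0.36). In C1 they were Pdcd1 (0.83), Lag3 (0.72) and Gzmb (0.35) against Ifitm3 (-1.03) and Il7r. In C0 Arl4c (-0.53) and Btg1 (-0.40) were lower. In C3 the centromere gene Incenp was higher (0.44), in C5 Zbtb32 was higher (0.82) and Arl4c (-1.46) and Ccl5 (-0.96) lower, and in C6 Malat1 was lower (-0.69).

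The doses were then read separately in 1 fit. With saline 469 genes were higher (5.08%) and 583 lower (6.32%), or 651 and 486 under library size scaling. With 5 mg/kg 171 were higher (1.85%) and 173 lower (1.87%), and with 50 mg/kg 96 were higher (1.04%) and 95 lower (1.03%). The saline group held 1402 expanded cells against 486 and 774, so these counts do not compare the doses, and the difference itself was tested. It passed for 34 genes between 5 mg/kg and saline (0.368%) and for 64 between 50 mg/kg and saline (0.694%). The same saline pools entered both.

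In saline pools the named genes were Havcr2 (0.63), Tmem97 (0.61), Prf1 (0.61) and the cell cycle genes Tk1 (0.60) and Ect2 (0.56), against Il7r (-1.70), the interferon-induced Ifitm1 (-1.13) and Ifi208 (-0.85), Tcf7 (-0.84) and Bcl2 (-0.78). With 5 mg/kg they were the chemokine Ccl3 (0.97), Prf1 (0.66), Pdcd1 (0.62), Zbtb32 (0.62) and Tnfrsf9 (0.61), against Il7r (-1.26), Ctla2a (-0.85), the chromatin organiser Satb1 (-0.80), Arl4c (-0.75) and Ly6c2 (-0.69). With 50 mg/kg they were Zbtb32 (0.51), Gm42031 (0.49), the mitotic genes Ncapg (0.46) and Cdkn3 (0.44) and Fabp5 (0.44), against Dtx1 (-0.66), Il7r (-0.59), Ifi27l2a (-0.52) and Tm6sf1 (-0.51). In the weighted fit none of these genes passed at 50 mg/kg, and Ncapg was at -0.18 outside the cycling clusters. Dtx1 with 50 mg/kg rested on replicate 3, and without it the difference was -0.26 (adjusted p = 0.413).

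Il7r differed less between the classes with 50 mg/kg than with saline. The differences were -1.70, -1.26 and -0.59 at the 3 doses in order, and the change from saline to 50 mg/kg was 1.11 (adjusted p = 7.59e-05). The chemokine receptor gene Ccr2 (change 0.58, adjusted p = 0.0114) and Klrd1 (0.52, adjusted p = 0.000877) also differed less with 50 mg/kg.

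Prf1 was higher in expanded cells with saline and with 5 mg/kg, and its difference with 50 mg/kg was near 0. Its levels in expanded cells were 358, 364 and 297 CPM in saline pools, 282, 312 and 322 in those given 5 mg/kg and 151, 138 and 131 in those given 50 mg/kg. In single cells they were 223, 221 and 222, then 186, 186 and 208, then 127, 138 and 135. The classes were apart in the first 2 groups and overlapped in the third. The differences were 0.61, 0.66 and 0.07, and the change from saline to 50 mg/kg was -0.54 (adjusted p = 0.00297). The changes between doses in Pdcd1, which differed by 0.41, 0.62 and 0.72, and in Havcr2, which differed by 0.63, 0.49 and 0.23, did not pass.

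Slamf6, which encodes Ly108, was lower in expanded cells with saline (-0.38), at 93.1, 112 and 110 against 140, 149 and 122 CPM. It was at 177, 149 and 161 against 156, 136 and 136 CPM with 5 mg/kg (0.19), and the change from saline was 0.57 (adjusted p = 0.014) with 5 mg/kg and 0.53 (adjusted p = 0.0175) with 50 mg/kg. Xcl1, a chemokine for cross-presenting dendritic cells, differed by -0.78 with saline and 1.47 with 5 mg/kg (change 2.26, adjusted p = 0.0114). Its levels in expanded cells with 5 mg/kg were 25.2, 470 and 515 CPM, so replicate 1 lay apart from the others and below its own single cells at 53.0 CPM.

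These counts are read against the share of all genes lower (6.32%, 1.87% and 1.03%) or higher (5.08%, 1.85% and 1.04%) at each dose, and they do not compare the doses. By list, naive, stem-like and memory genes had 14 of 16 lower in saline pools, 6 in those given 5 mg/kg and 4 in those given 50 mg/kg, and 0 higher at any dose. Interferon genes had 14, 8 and 5 of 17 lower. Mitosis genes had 23, 10 and 11 of 25 higher and replication genes 19, 6 and 8 of 28. Glycolysis genes had 7, 5 and 0 of 18 higher. Of the differences between 50 mg/kg and saline, 4 of the 16 naive list genes passed, all upward, beside 0.694% of all genes. None of the replication, mitosis or glycolysis genes passed, which at that share says little of lists of this size.

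Within the saline pools, several named genes were higher in larger clonotypes, though none of those below rose at each step in all 3 pools. Levels here are mean CPM without TMM scaling over 3 pools, for clonotypes of 1, 2, 3 to 5 and over 5 cells in order. Gzmb was at 2382, 3058, 3491 and 3723, Prf1 at 272, 310, 432 and 489, and Havcr2 at 192, 232, 286 and 375. For these 3 genes clonotypes over 5 cells were above those of 2 cells in 3 of 3 pools. Each of the 3 rose at every step over the 4 classes in 2 of 3 pools. Pdcd1 was at 368, 437, 522 and 524, was above in 2 of 3 pools and rose at every step in 2. Lag3 was above in 1 of 3 pools and rose at every step in 0. Gzma was at 1493, 1400, 1261 and 1444 with no order.

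Some genes that were lower in expanded cells were lower still in larger clonotypes. Btg1 was at 234, 201, 142 and 111, Slfn1 at 124, 113, 88.7 and 58.9, and Kbtbd11 at 90.4, 76.3, 55.0 and 42.6, and these 3 were lower at each step over all 4 classes in 3 of 3 pools. Il7r was at 181, 76.5, 63.2 and 40.4, so most of its difference lay between 1 and 2 cells. The share of cells in C4 rose over the same classes, and its part in these levels was not tested. With clonotypes of over 5 cells left out, and so with fewer cells, 281 genes passed with saline in place of 1052.

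**Figure D5:**
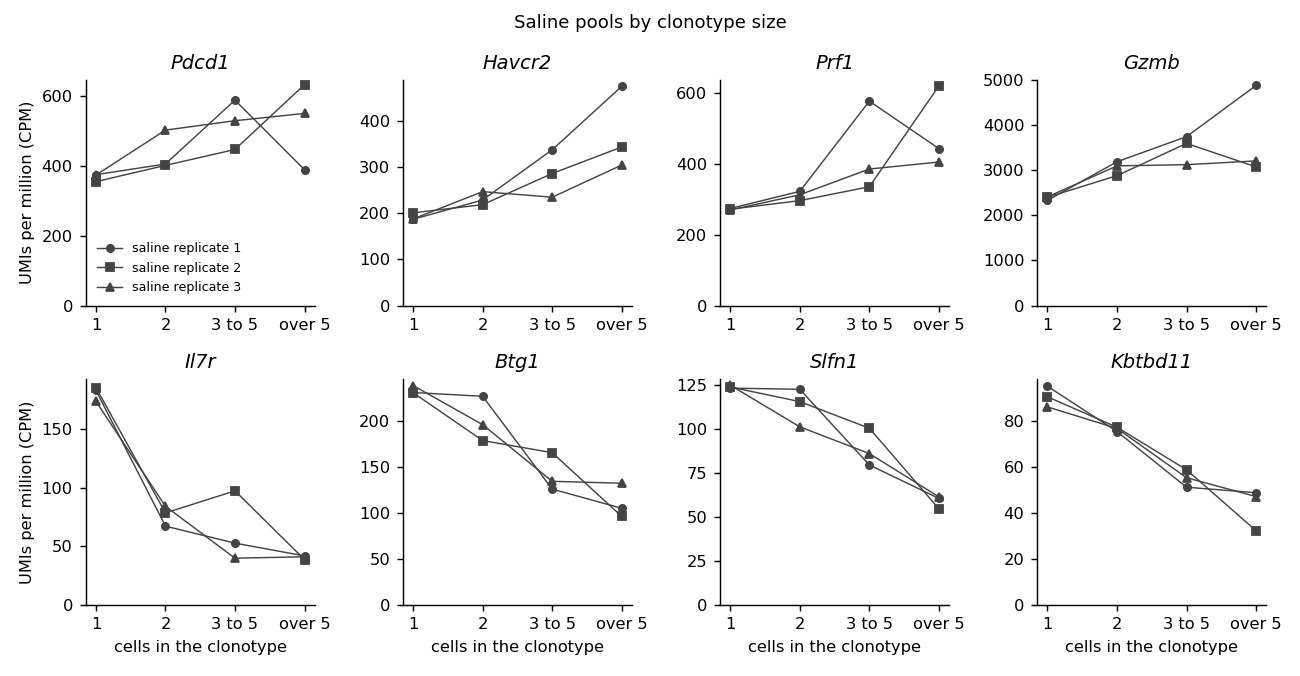
Level (CPM without TMM scaling) of 8 named genes in saline pools by clonotype size (1, 2, 3 to 5 and over 5 cells), with 1 line per pool. Havcr2, Prf1 and Gzmb lie higher, and Il7r, Btg1, Slfn1 and Kbtbd11 lower, in clonotypes of over 5 cells than in those of 2 cells in all 3 pools.

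The TCR sequences of the classes did not differ past the threshold in the measures taken. Among clonotypes with 1 alpha and 1 beta chain (736 expanded and 4039 single), the beta CDR3 was 40.6 ± 0.580 bases long in expanded and 40.9 ± 0.261 in single clonotypes (mean of pool means, exact sign-flip test over 9 pools, adjusted p = 0.547). The alpha CDR3 was 40.8 bases in both (exact adjusted p = 0.823, 9 pools). Bases between the V and J matches numbered 9.71 and 9.69 in the beta chain and 2.53 ± 0.235 and 2.69 ± 0.139 in the alpha chain (exact adjusted p = 0.922 and 0.203, 9 pools). No V or J segment of the 17 that reached a 5% share differed in use past the threshold. With 9 pools the exact sign-flip p cannot fall below 0.00391, so 1 segment alone could not pass after adjustment over 17. The lowest p was for TRBV19, in 6.52% of expanded and 8.17% of single clonotypes (exact p = 0.0781, adjusted p = 0.863, 9 pools).

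Clonotypes were rarely shared between pools. Of 7124 distinct clonotypes 104 were in 2 or more pools, 93 of them within 1 capture and 11 across captures. Pool pairs of 1 capture shared 7 to 14 clonotypes, 101 in all over 9 pairs, and pairs from different captures shared at most 2, 13 in all over 27 pairs. Of the 93, 90 had the same nucleotides in each pool. In 39 single cells the clonotype was expanded in another pool of the same capture. Pools of 1 capture were told apart by hashtags, and whether these cells belong to the mice of their hashtag was not tested. Of the 892 expanded clonotypes, 3 held 2 or more nucleotide sequences, and by V, J and nucleotides 1517 genes passed in place of 1393.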

How the data were processed

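Gene expression and TCR sequences of splenic CD8+ T cells were measured by 5′ droplet sequencing in 3 captures (saline, CSA 5 mg/kg and CSA 50 mg/kg), each with 3 hashtagged pools of 2 mice. The deposited values are UMI counts per gene and cell (18029 genes) that the authors made with Cell Ranger and Seurat 3.0.0 on mm10, per the submitters' processing notes, after removing dead cells and doublets. The deposited hashtag values are counts of antibody UMIs, and the deposited mitochondrial value is a fraction of UMIs per cell, as the authors computed it. The summed counts equalled the deposited UMI number in all 10833 CD8+ cells. CD4+ cells were not used here.

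Counts were summed per pool and class and tested with edgeR 4.0.16 in R 4.3.3 (filterByExpr, TMM scaling, quasi-likelihood test, Benjamini-Hochberg adjustment, threshold 0.05). The pool was a block, since both classes came from the same 2 mice. Doses were tested as class terms within dose in 1 fit, and clusters in pools with at least 10 cells of each class. Shares were compared with exact two-sided sign-flip or permutation tests (Python 3.11.15, NumPy 2.4.6, pandas 2.3.3, SciPy 1.17.1). A cell had 2 strong hashtags when the second reached 0.5 of the strongest.

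Genes named over all doses were the 10 highest and 10 lowest differences among genes that passed, averaged 50 CPM or more and had the same sign in 9 of 9 pools. Each dose and each difference between doses gave 5 of each by the same rule, without the sign rule for the latter, and each cluster up to 3. TCR and immunoglobulin segments were left out, and some genes that the rule chose are not reported here. Members of the gene lists were named with their values whether or not they passed. The members, lists and tests were chosen with earlier results of these data known.

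Alternatives were DESeq2 1.42.0, library size scaling, low counts left unfiltered, no pool block, other definitions of clonotypes and of expanded cells, cells of at least 2000 UMIs, single cells weighted to the cluster makeup of expanded cells, cells outside the cycling clusters, and each pool left out in turn. Clonotypes by beta chain alone, cells outside C4, cells without 2 strong hashtags and, for cell pairs, clonotypes of 2 to 5 cells and cells outside C7 were added after seeing the data. On simulated counts over 9151 genes, the fit over all doses recovered 100% of genes changed by 1 on the log2 scale and 93% of those changed by 0.5, with 20 unchanged genes called. Within saline, 5 mg/kg and 50 mg/kg the recovery was 95%, 87% and 93% at 1 and 72%, 48% and 59% at 0.5, with 8, 6 and 21 unchanged genes called. Depth differed between pools and classes as given in the text, and summed counts cover counting error as well as the spread between pools.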

Additional observations from a re-analysis of the deposited data

Results flagged for a closer look

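In 3 measures, 1 pool lay far from the other 8, and 31 measures were examined, of which chance alone marks about 1 in 20. The share of expanded minus single cells in the naive cluster C7 was -10.3 percentage points in CSA 5 mg/kg replicate 1 and -5.99 to -3.38 in the others. The share in C8 was 0.887 in CSA 50 mg/kg replicate 2 and -1.06 to -0.102 in the others. The log2 ratio of Dtx1 was -2.08 in CSA 50 mg/kg replicate 3 and -0.84 to -0.15 in the others, and without that pool its difference over all doses was -0.42 in place of -0.57 and still passed.

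The class difference itself differed between CSA 5 mg/kg and saline in 10 named genes by edgeR's quasi-likelihood test. The change was 2.26 for the chemokine Xcl1, 0.57 for Slamf6, 0.28 for S100a11, and 0.25 and 0.24 for the ribosomal protein genes Rps21 and Rpl41. It was -0.55 for Gzmk, -0.45 for Fubp1, -0.44 for Lars2, -0.31 for the chaperone Hsp90aa1 and -0.31 for the proliferation marker Mki67. Gzmk differed by 0.05 with saline and by -0.50 with 5 mg/kg. Leaving out 1 pool moved the number of such genes from 34 to between 6 (without saline replicate 2) and 52 (without CSA 50 mg/kg replicate 3).

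Between CSA 50 mg/kg and saline the change was 1.11 for Il7r, 0.58 for Ccr2, 0.53 for Slamf6 and 0.52 for Klrd1. It was -0.54 for Prf1, -0.34 for Hsp90b1, -0.32 for Hsp90aa1 and -0.30 for the mitochondrial gene mt-Nd2. The number of such genes was 64, and 19 without saline replicate 1, 25 without saline replicate 2 and 31 without CSA 50 mg/kg replicate 1. Both sets of changes were taken against the same 3 saline pools, and a dose cannot be told apart from its capture.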

How the results depend on the processing

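All 20 genes that the naming rule chose over all doses kept their direction and passed under DESeq2, no filter, library size scaling, no replicate block, each definition of clonotypes and each pool left out. In the weighted fit 16 passed, and 13 outside the cycling clusters, and the fit without the replicate block called 1287 genes in place of 1393. Over all named genes and settings 1211 values kept their call, 116 lost it and 1 reversed, Ncapg with 50 mg/kg, at -0.18 outside the cycling clusters. Fewer cells or samples entered many alternatives, and where that is not so the cause was not tested.

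Counts of genes moved as follows, for all doses, saline, 5 mg/kg and 50 mg/kg in order. DESeq2 gave 686, 271, 118 and 41. Clonotypes of 2 to 5 cells gave 800, 281, 134 and 106. The weighted fit gave 262, 140, 64 and 0, where 0 is edgeR's count against 191 without weights. Cells outside the cycling clusters gave 191, 172, 38 and 31. Cells with 1 alpha and 1 beta chain gave 882 for all doses, 185 with 5 mg/kg and 51 with 50 mg/kg. Outside C4 saline gave 423. With no filter 50 mg/kg gave 363, and the differences from saline gave 113 for 5 mg/kg and 136 for 50 mg/kg.

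Within clusters, no filter gave 20 genes in C0, 26 in C1, 174 in C2, 52 in C3, 204 in C4, 11 in C5, 13 in C6 and 19 in C8. DESeq2 gave 0 in C0, 4 in C1, 1 in C3, 14 in C4, 0 in C5 and 3 in C6. Library size scaling gave 5 in C0 and 11 in C3.

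Leaving out 1 pool, the counts ranged from 1090 to 1453 for all doses, 570 to 1136 for saline, 116 to 399 for 5 mg/kg and 30 to 231 for 50 mg/kg, where 30 was without replicate 3 and 88 without replicate 2 of that dose. Saline counts were 570, 603 and 591 without its replicates 1, 2 and 3, and 5 mg/kg counts were 165, 116 and 218. The differences from saline ranged from 6 to 52 for 5 mg/kg and 19 to 72 for 50 mg/kg. The change in the expanded share from saline to 50 mg/kg ranged from -15.5 to -11.7, and the same-cluster difference from 6.86 to 8.91.

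At a fixed number of cells the change in the expanded share from saline to 50 mg/kg was -12.9, and the trend over the doses passed (exact permutation test, 9 pools, p = 0.00357) whereas the 3 pools against 3 cannot pass. Cluster shares (expanded minus single) ranged, with 1 pool left out, from -5.05 to -4.09 in C0, -4.20 to -2.33 in C1, 5.54 to 7.42 in C2, 4.30 to 5.58 in C3, 3.25 to 5.38 in C4, -2.47 to -1.04 in C5, -1.08 to -0.608 in C6, -5.82 to -4.94 in C7 and -0.570 to -0.326 in C8. C1 and C8 passed without CSA 50 mg/kg replicate 2, and C6 without CSA 5 mg/kg replicate 3. In clonotypes of 2 to 5 cells C0 (-3.50) and C4 (3.18) no longer passed, nor did C4 in cells of at least 2000 UMIs (4.73) or without 2 strong hashtags (4.79), where C6 (-0.834) passed. The UMI difference within clusters did not pass at 80.4 in C0, 283 in C2, 57.3 in C3, 140 in C5 and 440 in C6. C4 (95.0, 3 pools) and C8 (-197, SD 929, 4 pools) had too few pools for the exact sign-flip test to pass.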
